A study of Mus musculus with 30 samples.

Results

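A set of 10 heat shock protein and chaperone genes were followed through 5 mouse tissues: Hspa1a, Hspa1b, Hspa8, Hsph1, Hspa5, Hsp90aa1, Dnajb1, Hspb1, Cryab and Hspd1. They were chosen by symbol, by a rule that uses no measured value, though with earlier results of these data known. Each matched 1 gene identifier, so the set holds 10 of the 48709 genes counted. The libraries came from adult C57BL/6 mice, either wild type (WT, labelled control) or Ctcf haploinsufficient (Ctcf+/-, called heterozygous here), which carry 1 working copy of the gene for the chromatin architecture protein CTCF. Brain, kidney, liver, spleen and skeletal muscle (quadriceps femoris) were each sampled in 3 WT and 3 heterozygous mice, giving 30 libraries. How the allele was made, and the animals' sex, are not given in the sources used here. The first question the design poses is how far the chaperone genes differ between tissues, and the second is whether their levels depend on Ctcf dosage.

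Chaperones bind unfolded or partly folded proteins and keep them from aggregating. HSP70 proteins do so in cycles of ATP binding and hydrolysis that J-domain proteins start and exchange factors such as HSP110 reset, and HSP90 takes over late folding steps of kinases and steroid receptors. Small heat shock proteins hold clients without ATP, BiP serves the endoplasmic reticulum (ER), and HSP60 works inside mitochondria. In stressed cells heat shock factor 1 raises many of these genes through repeated short elements in their promoters, whereas an excess of unfolded protein in the ER raises BiP through a separate element.

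Promoter sequences are shown because the members differ in which of these elements stand before their RefSeq start. RefSeq promoter entries of the mouse build GRCm38.p6, taken as the 250 bases before each start, were found for 7 of the 10 members. Hspa8, Hsp90aa1 and Cryab had no entry and were not searched. The motifs GAANNTTC and TTCNNGAA each stand for 2 neighbouring heat shock units. A run of 3 units is GAANNTTC followed by 2 further bases and GAA, and it contains both paired motifs. The ER stress response element is CCAAT and CCACG with 9 bases between them. Each was searched on both strands. Dnajb1 had an entry but held none of these motifs. Capitals mark the matches, and positions before the start are counted upstream. The stretches of Hspa5 and Hspd1 (30 of 30 bases each) and most of that of Hsph1 (25 of 30) lie before the RefSeq start of the entry but inside annotated exons of the same gene. The stretches of Hspa1a, Hspa1b and Hspb1 overlap no annotated exon.
Hspa1a, chr17:34972237-34972376, minus strand: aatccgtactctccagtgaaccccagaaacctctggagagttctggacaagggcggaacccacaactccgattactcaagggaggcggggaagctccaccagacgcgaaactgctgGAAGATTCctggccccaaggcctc
Hspa1b, chr17:34959319-34959458, minus strand: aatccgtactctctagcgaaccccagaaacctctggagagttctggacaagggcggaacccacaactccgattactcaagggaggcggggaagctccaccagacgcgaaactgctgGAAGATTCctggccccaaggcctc
Hspb1, chr5:135887779-135887858, plus strand: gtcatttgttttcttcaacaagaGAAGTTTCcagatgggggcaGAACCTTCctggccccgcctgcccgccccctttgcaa
Hsph1, chr5:149636352-149636381, minus strand: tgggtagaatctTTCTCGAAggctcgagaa
Hspd1, chr1:55088053-55088082, minus strand: ggggccTTCCGGAAGGTTCTAGAAcggacc
Hspa5, chr2:34772020-34772049, plus strand: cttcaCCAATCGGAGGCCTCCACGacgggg
The head-to-head pair GAANNTTC was present in 6.69% of the 32851 promoter entries and in Hspa1a, Hspa1b, Hspb1 and Hspd1 among the members. Hspb1 held it at 2 places, and Hspa1a and Hspa1b held it at the same place, 97 to 104 bases before the start. The tail-to-tail pair TTCNNGAA was present in 7.17% of entries and in Hspd1 and Hsph1. The run of 3 units was found in 0.466% of entries, among them Hspd1 and its divergent neighbour Hspe1, the HSP60 co-chaperonin, whose 5′ ends overlap by 112 bases. The matches of Hspd1 and Hspe1 are the same bases, read from opposite strands. Dnajb6 was the other chaperone gene that held the run. The ER element was found in 37 entries, 0.113% of all, and Hspa5 was the member that held it. Of the 64 other chaperone and stress-response genes with an entry, Calr, Canx, Creld2, Dnajc3, Hsp90b1 and Pdia6 held the ER element too. A match is a description of letters and not evidence of a bound site.

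The pair Hspa1a and Hspa1b encode the main stress-inducible HSP70. They lie 9951 bases apart on the minus strand of chromosome 17, Hspa1b (ENSMUSG00000090877) at chr17:34956436-34959238 and Hspa1a (ENSMUSG00000091971) at chr17:34969190-34972156 of GRCm38, the build of all gene coordinates here. Over the 300 bases of their promoter entries they differed at 4 positions, written with the Hspa1a base first and counted from 1 at the 5′ end: C44T, T47C, T249G and C276T. The first 3 lie before the start, where the entries were 98.8% identical. Their transcripts share sequence too. Of all 150-base stretches of annotated Hspa1a transcript, 46.0% also occur in another gene, mostly Hspa1b, and for Hspa1b the share was 40.5%. The authors' counting dropped fragments that map to several places, so their separate levels are uncertain. The same holds for Hspb1 (36.6% of stretches shared, mostly with the pseudogene Hsp25-ps1), Hsp90aa1 (36.2%, Gm12346), Hspa8 (22.4%), Hspd1 (18.6%) and Cryab (10.6%, Hspb2), whereas Dnajb1, Hspa5 and Hsph1 shared no such stretch. Overlapping exons of a second gene also cover 19.0% of Hspa1a, 6.3% of Hspa8 and 4.2% of Hspd1, and the counting used no strand.

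Library depth ran from 49819907 to 131645999 assigned fragments, with a median of 85886888. Levels below are counts-per-million (CPM) after TMM scaling over the 30 libraries, so a library's total is adjusted for genes that take a large share of it. Ctcf, the targeted gene, stood at 61.5% to 68.1% of the WT mean across the 5 tissues, and the 2 genotypes did not overlap in any of them. Each tissue carried its defining markers: summed over 5 genes, brain held 3706 to 4447 CPM of neuron markers, kidney 15293 to 20411 of tubule and podocyte markers, liver 210378 to 322560 of hepatocyte markers, muscle 218648 to 267686 of fast skeletal muscle markers and spleen 2658 to 3351 of lymphocyte markers. These are pieces of whole tissue, so fewer cells of a type and less RNA per cell cannot be told apart. The kidney libraries WT 3 and heterozygous 3 held fast skeletal muscle markers at 122 and 157 CPM against 4.60 to 7.29 in the other 4.

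Across WT tissues the members ranged from near-uniform to almost tissue-restricted. The ratio of the highest to the lowest tissue mean was 2.22 for Hspa8, between 3.80 and 7.56 for Hsph1, Hspa5, Hspd1, Dnajb1 and Hsp90aa1, 44.6 for Hspa1a, 58.5 for Hspa1b, 1887 for Hspb1 and 8622 for Cryab. A tissue difference was called at an adjusted p under 0.05 and at least 1 log2 unit in edgeR's quasi-likelihood test on the 15 WT libraries. By that rule 62 of the 100 member and contrast pairs were called, against 56.6% of all gene and contrast pairs, so the members as a set differed between tissues about as often as other genes did. Cryab was called in 10 of 10 contrasts, Hspb1 in 9, Hspa1a and Hspa1b in 8 each, Hsp90aa1 in 7, Hspd1 in 6, Hsph1 in 5, Hspa5 and Dnajb1 in 4 each and Hspa8 in 1. Of the 62 calls, 57 were also made among the heterozygous libraries. The contrasts share libraries and are not independent of one another.

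**Figure D1:**
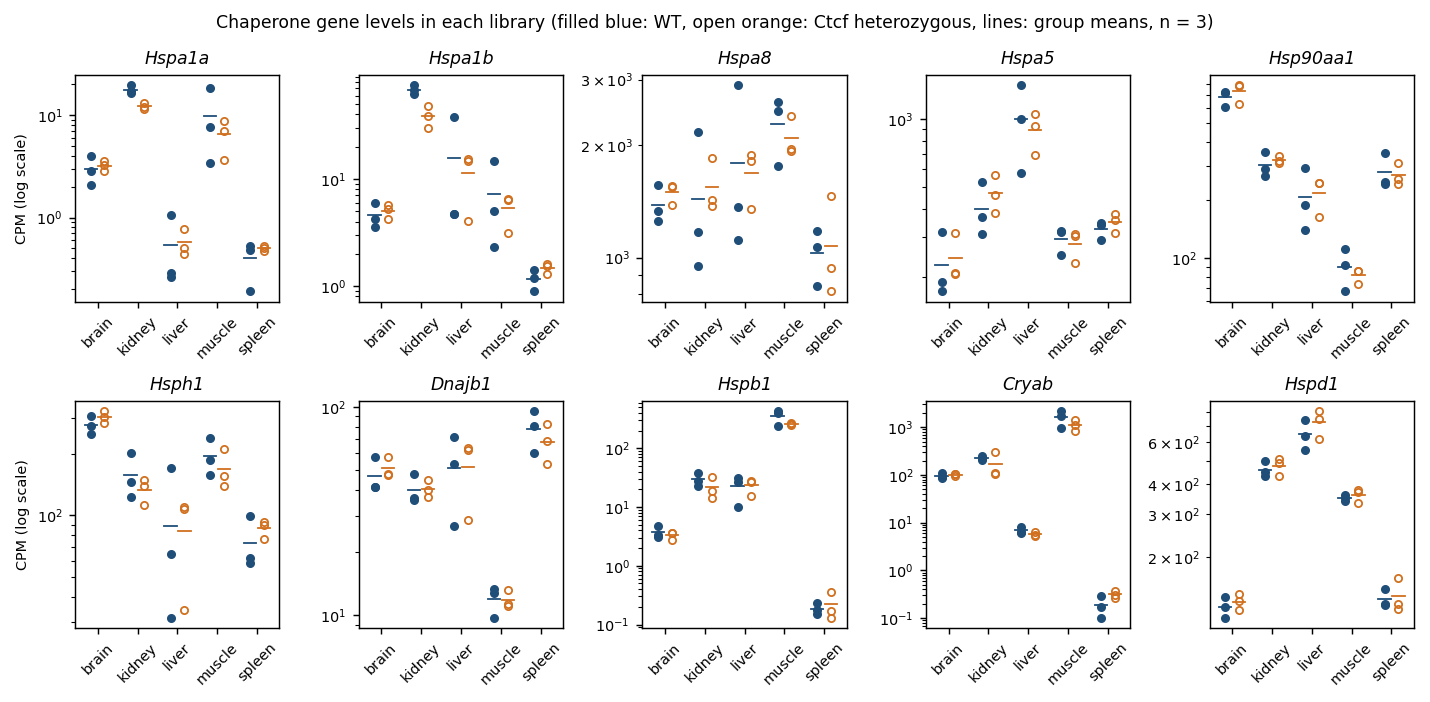
Level of each of the 10 members in CPM (log axes that differ between panels) in the 30 libraries by tissue, with filled points for WT, open points for heterozygous and lines for group means (n = 3). Cryab and Hspb1 span the widest range, with muscle highest and spleen lowest, and Hspa8 the narrowest, whose order of tissues changes with total-count scaling.

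Contrast by contrast, 9 of 10 members were called between muscle and spleen (63.7% of all genes were called) and 8 between brain and liver (59.8%). Between pairs with smaller counts, 7 were called between liver and muscle (50.6%), and 6 each between brain and kidney (56.1%), brain and muscle (59.2%), brain and spleen (66.7%) and kidney and spleen (61.3%). A further 5 were called between kidney and muscle (49.6%), 5 between liver and spleen (59.9%) and 4 between kidney and liver (38.6%). The scaling bears on these counts. With total counts in place of TMM, the median of all genes shifted by 0.99 to 1.32 log2 units in each contrast of liver or muscle with brain, kidney or spleen. Then 63 pairs were called, 51 of them shared with the TMM scaling, and 17 of the 100 differences changed sign. Directions given below kept their sign under both scalings unless the sentence says otherwise.

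The inducible pair was highest in kidney. Hspa1b stood at 67.6, 75.5 and 61.9 CPM in WT kidney, at 4.67, 38.0 and 4.74 in liver, 5.05, 14.5 and 2.29 in muscle, 4.19, 5.90 and 3.59 in brain and 1.19, 1.42 and 0.890 in spleen. Every kidney library lay above every library of the other tissues. Kidney exceeded the next tissue, liver, by 2.16 log2 (SE 0.72, n = 3 each, edgeR adjusted p = 0.0198). The call was lost without liver WT 1 (adjusted p = 0.0685) or liver WT 3 (0.0607). Liver, muscle and brain followed in an order whose neighbours were not called, and muscle and brain swapped places with total counts. Liver and brain differed by 1.69 log2, called with all libraries, but without liver WT 2 the difference was 0.01 log2 in the opposite direction, and leaving out any of the 3 brain libraries also ended the call, as did total counts (brain minus liver -0.51). Brain exceeded spleen by 2.05 log2, a call lost without brain WT 2 (adjusted p = 0.0577) or spleen WT 3 (0.0665).

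Hspa1a stood at 16.3, 19.8 and 17.3 CPM in WT kidney and at 7.63, 18.7 and 3.39 in muscle. The groups overlapped and the difference of 0.71 log2 was not called (SE 0.53, adjusted p = 0.262). Brain followed at 2.97 ± 0.971 CPM (mean ± SD, n = 3), below muscle by 1.82 log2 (adjusted p = 0.0081), a call that was lost without muscle WT 2 (brain minus muscle -0.96) and with total counts (-0.55, adjusted p = 0.352). Kidney over muscle was called with total counts (1.87 log2, adjusted p = 0.00564). Liver (0.536 ± 0.457 CPM) and spleen (0.399 ± 0.183) were lowest, did not differ by the test, and exchanged order with total counts. In muscle, per kilobase of exon, Hspa1a was at 3.33 and Hspa1b at 2.60 CPM. Hspa1l, the testis-type HSP70 that starts 546 bases from Hspa1a on the opposite strand, was higher in muscle than in each other tissue (24.6 CPM, at least 4.15 log2). Exons of Gm10501 cover 71.9% of Hspa1l, and the counting used no strand, so its own level is uncertain.

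Hspa8, the constitutive cytosolic HSC70 (ENSMUSG00000015656, chr9:40800984-40805200), was the member with the flattest profile. Its WT libraries stood at 2612, 2472 and 1762 CPM in muscle, 1367, 2904 and 1117 in liver, 949, 2173 and 1172 in kidney, 1329, 1565 and 1251 in brain and 1065, 1176 and 841 in spleen. Neighbours in this order overlapped except brain and spleen, which were not called either. The single call, muscle over spleen by 1.32 log2, vanished with total counts (-0.01), and 7 of its 10 differences changed sign between scalings. Per kilobase of exon it was the most abundant member in 4 tissues, holding 44.5% of the members' summed CPM per kilobase in brain, 35.3% in kidney, 42.1% in liver and 51.4% in spleen.

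Hsph1, the HSP110 exchange factor of HSP70 (ENSMUSG00000029657, chr5:149614287-149636376), was highest in brain at 273, 307 and 251 CPM. Muscle (195 ± 41.5 CPM) and kidney (157 ± 40.3) followed, then liver (88.7 ± 72.0) and spleen (72.9 ± 22.6), and no neighbouring pair in this order was called. Liver held the widest spread, with WT libraries at 65.0, 169.6 and 31.6 CPM. With total counts kidney stood above muscle and spleen above liver, and brain over muscle (1.70 log2) and kidney over liver (1.92) were called. The calls of kidney over spleen and muscle over liver were each lost when 1 of several libraries was left out, namely kidney WT 2, spleen WT 1 or spleen WT 3 for the first and liver WT 1, liver WT 3 or muscle WT 1 for the second, and the first was also lost with total counts. Of 7 other cytosolic HSP70 and HSP110 genes, 3 were higher in brain than in each other tissue, Hspa12a (166 CPM), Hspa4l (122) and Hspa2 (33.5), by at least 3.17, 1.59 and 1.45 log2. Another 2, Hspa1l and Hspa12b, met that rule in muscle and 1, Hspa14, in spleen. Over all genes 16.7% met it in brain, 8.37% in muscle and 14.8% in spleen.

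Hspa5 (ENSMUSG00000026864, chr2:34771970-34777547) encodes BiP, the HSP70 of the ER. It stood at 999.9, 1412 and 578 CPM in WT liver and at 366, 524 and 308 in kidney, with no overlap. Liver exceeded kidney by 1.29 log2 (SE 0.30, adjusted p = 0.00219), a call that was lost without liver WT 2 (0.97 log2), in heterozygous libraries (0.94 log2) and with total counts. Spleen (326 ± 30.2 CPM), muscle (294 ± 38.6) and brain (226 ± 78.6) followed without a call between neighbours. Muscle and spleen were level in the test under TMM (muscle minus spleen 0.02 log2). With total counts muscle moved below brain, and muscle minus spleen was called (-1.32). Of 16 other ER chaperones, 4 were higher in liver than in each other tissue (6.65% of all genes were), 1 of them also with total counts. P4hb, a protein disulfide isomerase, reached 2313 CPM there, at least 2.10 log2 above each other tissue, and Hsp90b1, the ER HSP90, 946 CPM, at least 1.34 log2. Pdia6 and Pdia4 were the other 2, and the unfolded protein response regulators Ern1 and Xbp1 met the same rule, as did the mitochondrial Clpx, Grpel1 and Grpel2. Of these 9 genes, P4hb and Ern1 still met it with total counts.

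Hsp90aa1, the stress-responsive cytosolic HSP90 (ENSMUSG00000021270, chr12:110690605-110702728), was highest in brain. The WT libraries stood at 718, 727 and 604 CPM in brain, 288, 355 and 265 in kidney, 247, 349 and 242 in spleen, 188, 293 and 139 in liver and 91.9, 112 and 67.3 in muscle. Brain lay above every library of the other tissues, by 1.23 log2 over kidney (SE 0.25, adjusted p = 0.000537), and muscle was lowest, 1.03 log2 below liver (adjusted p = 0.00234). The middle 3 tissues were not separated between neighbours, and with total counts kidney and spleen changed order and liver minus spleen was called (-1.63). Without liver WT 2 or muscle WT 3 the gap between liver and muscle fell under 1 log2 unit (0.72 and 0.86).

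Dnajb1, the J-domain partner HSP40 (ENSMUSG00000005483, chr8:83608193-83612653), was lowest in muscle. Its muscle libraries held 13.3, 12.7 and 9.71 CPM, and kidney, the next lowest under TMM, held 35.6, 47.8 and 36.4. The muscle deficit of 1.61 log2 was called (SE 0.29, adjusted p = 0.00017). Spleen was highest at 78.6 ± 17.9 CPM, followed by liver (50.7 ± 22.7) and brain (46.8 ± 9.25), with no call between neighbours. With total counts liver minus spleen was called (-1.82), and brain, level with liver under TMM (0.03 log2 lower), was 1.11 log2 above it. Kidney minus liver changed sign, from -0.31 to 0.72 log2, so liver was then the next lowest after muscle. Of 9 other J-domain genes, 4 were highest in muscle by the rule of exceeding each other tissue, which 8.37% of all genes met there. They were Dnajb5, Dnaja4, Dnajb4 and Dnaja2, though none of these 4 met it with total counts. Dnajc5 met the rule in brain (280 CPM, at least 1.23 log2), where 16.7% of all genes did, and kept it with total counts.

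The small heat shock proteins gave the widest tissue contrasts. Cryab, which encodes alpha B-crystallin (ENSMUSG00000032060, chr9:50752758-50756633), stood at 2162, 1711 and 959 CPM in WT muscle, 250.4, 227 and 203 in kidney, 91.9, 112 and 85.0 in brain, 6.47, 8.14 and 6.01 in liver and 0.291, 0.167 and 0.102 in spleen. No 2 tissues overlapped, and every step in this order was called. Muscle exceeded spleen by 13.26 log2 (SE 0.47). Hspb1 (ENSMUSG00000004951, chr5:135887919-135889563) encodes HSP25, the mouse counterpart of human HSP27. It stood at 428, 390.3 and 238 CPM in muscle, 23.2, 37.2 and 27.8 in kidney, 30.6, 26.7 and 10.1 in liver, 3.08, 4.71 and 3.34 in brain and 0.231, 0.176 and 0.153 in spleen. Every step was called except that from kidney to liver, where the libraries overlapped, and muscle exceeded spleen by 11.05 log2 (SE 0.52).

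In muscle these 2 genes were among the 3 most abundant members per kilobase. Cryab held 54.1% of the members' summed CPM per kilobase there (1359 CPM per kilobase), ahead of Hspa8 (549) and Hspb1 (342). Relatives were also highest in muscle: Hspb6 at 1420.2 CPM, Hspb7 at 836 and Hspb2 at 143 exceeded each other tissue by at least 6.46, 8.16 and 5.25 log2. Cryab and Hspb2 lie head to head on chromosome 9 with 403 bases between them, and both were highest in muscle, but Cryab alone was abundant in kidney (227 against 4.14 CPM) and brain (96.3 against 0.434 CPM). In all, 14 of 78 other chaperone genes exceeded each other tissue in muscle, 9 in liver, 4 in brain, 1 in kidney and 1 in spleen. Of these, 8, 2, 4, 1 and 1 also did so with total counts. Among the 10 members, 2 did so in muscle (8.37% of all genes did), 1 each in brain (16.7%), kidney (6%) and liver (6.65%), and 0 in spleen (14.8%), where Hspa1a, Hspa1b, Hspa8, Hsph1, Hspb1 and Cryab were at their lowest. With total counts the liver member, Hspa5, no longer did so. For Hspa1a, Hspa8 and Hsph1 that lowest position passed to liver with total counts.

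Hspd1, the mitochondrial HSP60 (ENSMUSG00000025980, chr1:55077835-55088243), stood at 635, 746 and 559 CPM in WT liver, 432, 499 and 449 in kidney, 349.9, 361 and 343 in muscle, 126, 147 and 127 in spleen and 124, 136 and 111 in brain. Liver, kidney and muscle lay above spleen and brain without overlap, and the step from muscle to spleen was called at 1.56 log2 (SE 0.14, adjusted p = 9.02e-08) but not with total counts (0.22 log2, adjusted p = 0.111). Kidney over muscle was called with total counts (1.42 log2) and not under TMM (0.25). The step from liver to kidney (0.47 log2, adjusted p = 0.00923) was under 1 log2 unit and reversed with total counts. Its WT spread was small, with SDs of 9.01 to 94.0 CPM. Hspe1, the partner gene that shares its 5′ region, had the same tissue order, at 224 CPM in liver, 191 in kidney, 174 in muscle, 108 in spleen and 44.7 in brain.

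Ctcf dosage was examined within each tissue, with 3 WT against 3 heterozygous libraries. No member passed an adjusted p of 0.05 in edgeR's quasi-likelihood test in any tissue, where the share of all genes called was 0.0157% for brain, 0.0211% for kidney, 0.0193% for liver, 0.0249% for muscle and 0.242% for spleen. At an unadjusted p under 0.05 there were 2 members in kidney, Hspa1a and Hspa1b (6.44% of genes), 1 in muscle, Hspb1 (6.45%), and 0 in brain (2.96%), liver (4.56%) and spleen (3.52%). DESeq2 called 2 members in kidney (0.866% of genes) and 0 in brain, liver, muscle and spleen, where it called 0.146%, 0.468%, 0.99% and 1% of genes. Limma-voom called 0 members in each tissue. Ctcf itself was called by edgeR in brain (adjusted p = 0.0259) but not in kidney (0.107), liver (0.543), muscle (0.25) or spleen (0.914). DESeq2 called Ctcf in each tissue except spleen (adjusted p = 0.304). A member that was not called is therefore not shown to be unchanged. The p-values measure the spread between these mice.

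**Figure D2:**
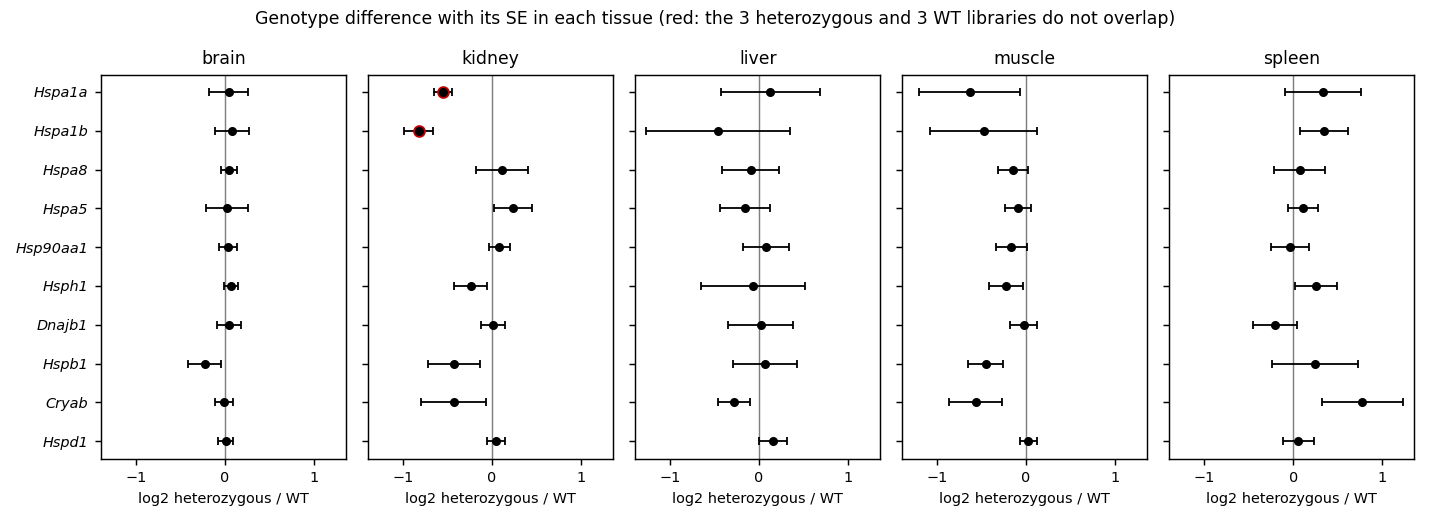
Log2 ratio of heterozygous to WT for each member in each tissue from edgeR, with bars of 1 SE and red rings where the 3 libraries of each genotype do not overlap. Kidney Hspa1b (-0.82) and Hspa1a (-0.55) are the ringed values, and no value passed the adjusted threshold.

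The kidney held the largest genotype differences relative to their error, in the inducible HSP70 pair. Hspa1b stood at 67.6, 75.5 and 61.9 CPM in WT and 29.9, 38.5 and 47.9 in heterozygous kidney. The genotypes did not overlap, and the heterozygous mean was 56.7% of the WT mean. The log2 difference was -0.82 (SE 0.16, edgeR adjusted p = 0.246, DESeq2 adjusted p = 0.000442). Hspa1a stood at 16.3, 19.8 and 17.3 CPM in WT and 11.6, 11.9 and 13.1 in heterozygous kidney, again without overlap. Its log2 difference was -0.55 (SE 0.10, edgeR adjusted p = 0.217, DESeq2 adjusted p = 0.00232). These were the 2 members with all heterozygous below all WT libraries in kidney, an order that 4.71% of genes showed, and no member had the opposite order (6.43%). Elsewhere 0 members had either order. Heterozygous libraries all below WT were seen in 1.85% of genes for brain, 3.43% for liver, 5.12% for muscle and 2.55% for spleen, and all above in 9.84%, 5.5%, 6.78% and 3.96%. These shares rest on CPM scaled over the 30 libraries. Since Hspa1a and Hspa1b share sequence, their differences are not separate observations.

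Cryab and Hspb1 in kidney divided by library number. Cryab stood at 250.4, 227 and 203 CPM in WT and at 103, 109 and 297 in heterozygous kidney, so that 2 heterozygous libraries lay below and 1 above every WT library. The difference over all 6 was -0.43 log2 (SE 0.37, adjusted p = 0.990). Without heterozygous 3 it was -1.10 (SE 0.11, adjusted p = 0.0169), a difference that passed. Hspb1 stood at 23.2, 37.2 and 27.8 against 14.1, 19.0 and 32.8 CPM, with heterozygous 1 and 2 below every WT library and heterozygous 3 within the WT range. Without that library 2 members, Cryab and Hspa1b (-0.997, adjusted p = 0.0417), were called by edgeR in kidney, where 0.29% of genes were. Heterozygous 3 and WT 3 are the kidney libraries with skeletal muscle transcripts, at 157 and 122 CPM of the 5 markers, and the part of those transcripts in the Cryab values was not tested. Leaving out both, a choice made after seeing the data, gave Cryab -1.17 (adjusted p = 0.0204) and no call of Hspa1b.

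Genes of the renal medulla and collecting duct, a list added after seeing the data, were set beside these values. Akr1b3, the aldose reductase that makes sorbitol in salt-stressed medulla, stood at 324, 287 and 262 CPM in WT and 37.9, 78.8 and 259 in heterozygous kidney. Slc6a12, the betaine transporter, stood at 6.57, 5.98 and 5.64 against 1.61, 2.75 and 3.61, Slc14a2, the medullary urea transporter, at 42.9, 40.7 and 37.8 against 19.4, 28.0 and 31.4, and the water channel gene Aqp4 at 89.7, 90 and 70.4 against 42.9, 43.4 and 54.9. In these 4 of 10 genes all heterozygous lay below all WT libraries, and none passed edgeR's adjusted threshold (Aqp4 -0.83, adjusted p = 0.158). As with Hspa1a and Hspa1b, DESeq2 called some of them, with adjusted p of 7.04e-06 for Aqp4, 0.00062 for Slc6a12 and 0.0324 for Slc14a2. The other 6 did not separate; Aqp2 stood at 340, 360.1 and 281 against 191, 416 and 571 CPM and Hsd11b2 at 125, 128 and 107 against 124, 123 and 118. Summed over the 10, WT libraries held 1276, 1321 and 1044 CPM and heterozygous ones 734, 1122 and 1366, and none of the 10 was at 0. The part of medullary tissue in the Hspa1a, Hspa1b and Cryab values was not tested.

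**Figure D3:**
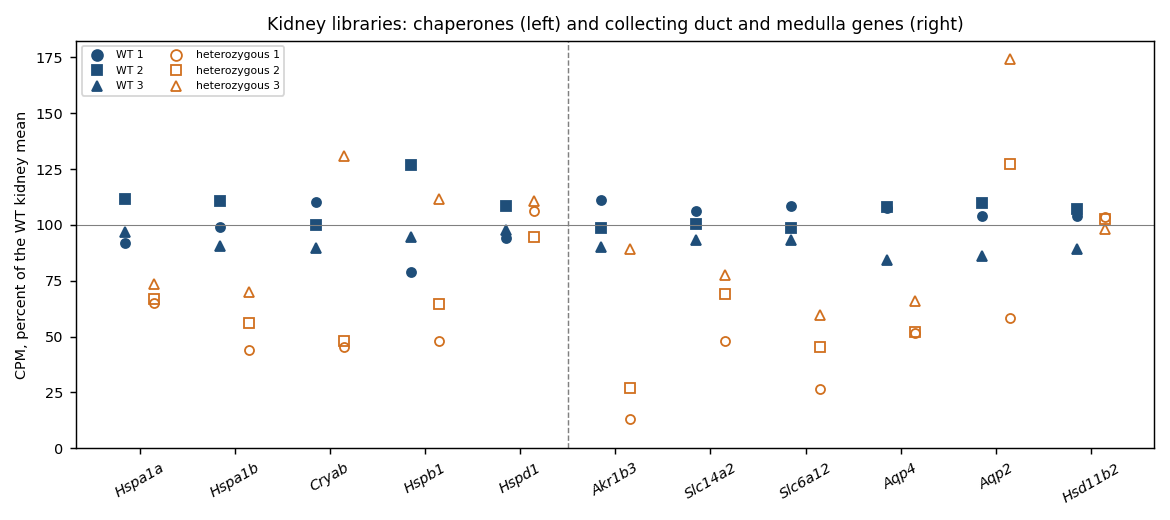
CPM in the 6 kidney libraries as a percent of the WT kidney mean (line at 100), for 5 members on the left and 6 genes of the renal collecting duct and medulla on the right, with filled symbols for WT, open symbols for heterozygous and shapes for library numbers. Hspa1a and Hspa1b separate by genotype, Cryab is low in heterozygous 1 and 2 (103 and 109 CPM) and high in heterozygous 3 (297), and Akr1b3 is low in the first 2 (37.9 and 78.8) with heterozygous 3 (259) just below the lowest WT library (262).

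The other 6 kidney members overlapped between genotypes. Hspa5 had 399.6 ± 112 CPM in WT and 470.3 ± 91.6 in heterozygous kidney, Hsp90aa1 303 ± 46.8 and 322 ± 13.3, and Hspd1 460.3 ± 34.9 and 478 ± 38.3 (SD, n = 3). Among 77 other chaperone genes tested in kidney 0 were called and 5 had an unadjusted p under 0.05. The smallest p belonged to Hspa4l, an HSP110 relative, at 50.4, 39.4 and 36.9 CPM in WT and 34.1, 32.6 and 32.97 in heterozygous libraries (-0.35 log2, SE 0.12, adjusted p = 0.615). Next was Sdf2l1, an ER co-factor of BiP, at 10.02, 12.9 and 9.25 against 13.2, 14.5 and 14.4 CPM (0.39 log2, adjusted p = 0.638). The ER chaperone list as a whole had a median difference of 0.13 log2 in kidney and the 10 members one of -0.11, beside 0.00 for all genes.

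In muscle 9 of the 10 members had a negative difference, with a median of -0.20 log2 beside -0.01 for all genes tested. Cryab stood at 2162, 1711 and 959 CPM in WT and 1389, 1098 and 817 in heterozygous muscle (-0.57 log2, SE 0.29, adjusted p = 0.853). Hspb1 stood at 428, 390.3 and 238 against 262, 267 and 252 CPM (-0.45, SE 0.19, adjusted p = 0.767). WT 3 lay within the heterozygous range for Cryab and below it for Hspb1, so the groups overlapped in both. Hspd1 gave the opposite sign at 0.03 log2 (349.9, 361 and 343 against 373, 381 and 334 CPM). Hspa8, Hsph1, Hspa5, Hsp90aa1 and Dnajb1 differed by -0.22 to -0.03 log2, with overlap, and Hspa1a and Hspa1b by -0.63 (SE 0.57) and -0.48 (SE 0.60), where WT 2 stood above the other 5 libraries at 18.7 and 14.5 CPM.

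Slow-fibre markers also differed between the muscle libraries. Summed over 5 genes they stood at 2374, 2914 and 1107 CPM in WT and 741, 1526 and 408 in heterozygous libraries, and Myh7, the slow myosin heavy chain, at 645, 928 and 407 against 238, 509 and 97.0. No slow-fibre gene was at 0, and the difference of each was between -1.33 and -1.24 log2 with none passing the adjusted threshold. Hspb6 stood at 1754, 1563 and 944 against 1347, 1144 and 852 CPM, and Hspb7 at 1166, 987 and 355 against 704, 549.6 and 208. Libraries of number 3 were thus lowest of their genotype in Cryab, Hspb6, Hspb7 and Myh7. Within each genotype the slow-fibre sum was highest in number 2, whereas Cryab, Hspb6 and Hspb7 were highest in number 1. Hspb1 in heterozygous libraries (262, 267 and 252 CPM) and Hspb8, at 663, 627 and 702 against 609, 578 and 701, did not follow Myh7. Adipocyte markers stood at 110, 75.9 and 35.6 CPM in WT and 519, 195 and 364 in heterozygous muscle. The part of fibre type and of fat in the Cryab and Hspb1 values was not tested.

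**Figure D4:**
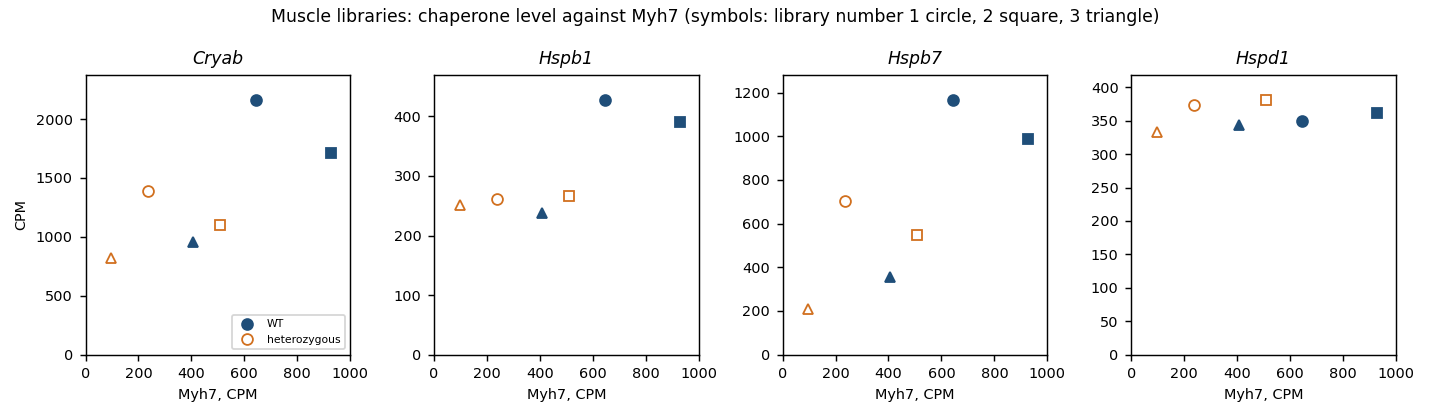
CPM of Cryab, Hspb1, Hspb7 and, for contrast, Hspd1 against CPM of Myh7 in the 6 muscle libraries. Cryab and Hspb7 are highest in WT 1 and WT 2, which hold 645 and 928 CPM of Myh7, and lowest in heterozygous 3 (97.0 CPM of Myh7) for both, while Hspd1 stays between 334 and 381 CPM.

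Among 77 other chaperone genes in muscle 0 were called and 3 had an unadjusted p under 0.05. Hsp90ab1, the constitutive cytosolic HSP90, stood at 2202, 2269 and 2222 CPM in WT and 1892, 1857 and 1734 in heterozygous muscle, without overlap (-0.31 log2, SE 0.10, adjusted p = 0.546). Hspb2 stood at 157, 139 and 134 against 113, 129 and 122 CPM (-0.26, SE 0.10, adjusted p = 0.671). The block on library number called Hspb7 in muscle and no member.

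Brain, liver and spleen gave no member at an unadjusted p under 0.05. In brain the differences ran from -0.23 log2 (Hspb1, SE 0.18) to 0.08 (Hspa1b, SE 0.19), with a median of 0.04. Of 11 immediate early genes, which respond quickly to activity and handling, the summed level was 369, 484 and 336 CPM in WT and 571, 506 and 582 in heterozygous brain. As scaled over the 30 libraries, that sum separated the genotypes while the members did not, but 1 of the 11 genes did so on its own. It was Egr1, at 185, 293 and 166 CPM in WT and 297, 335 and 314 in heterozygous brain. Over all genes tested in brain, 9.84% had all heterozygous above all WT libraries. In liver the median was -0.03, and Cryab at 6.47, 8.14 and 6.01 against 5.33, 5.49 and 6.22 CPM (-0.28, SE 0.18) had groups that overlapped, or did not when the 6 liver libraries were scaled alone. In spleen the median was 0.18, and Cryab had the largest difference at 0.291, 0.167 and 0.102 against 0.265, 0.373 and 0.312 CPM (0.78, SE 0.46, not called), a level of few counts. Markers of other tissues also split by genotype in spleen. Tubule and podocyte markers summed to 0.291, 0.117 and 0.204 CPM in WT and 7.30, 15.1 and 14.9 in heterozygous spleen. Hepatocyte markers went the other way, at 29.0, 22.9 and 23.8 against 0.0629, 0.239 and 0.167 CPM. The part of such transcripts in the spleen values was not tested.

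The other chaperones in these 3 tissues had 0 calls by edgeR, and none reached an unadjusted p under 0.05. DESeq2 and limma-voom called 0 of them in each of the 5 tissues. In brain the smallest p values belonged to Hspa13 (-0.11 log2) and Hspa12a (0.09), in liver to the unfolded protein response factor Xbp1 (428, 336 and 346 against 327, 323 and 228 CPM, -0.35) and the steroid receptor co-chaperone Fkbp5 (-0.59), and in spleen to Hspb8 (1 to 13 counts per library) and Hsf4 (0.46). A genotype effect shared by the 5 tissues was tested in 1 fit of all 30 libraries, where 0 members and 0.194% of genes were called, with 0 members at an unadjusted p under 0.05. Whether the effect differed between tissues was tested by the interaction term, with 0 members and 0.758% of genes called. No member had an unadjusted p under 0.05 there either, so the kidney values of Hspa1a and Hspa1b were not shown to differ from those of other tissues.

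Individual libraries moved the members together within a group. WT 2 was the highest of the 3 WT libraries in 39 of the 50 member and tissue sets, WT 1 in 11 and WT 3 in 0. Over all genes WT 2 was highest in 23.8% to 40.6%, depending on the tissue, and WT 3 in 29.8% to 39.8%. WT 2 was highest for 10 of 10 members in brain, 9 in kidney, 9 in liver, 6 in spleen and 5 in muscle. The sources do not say whether libraries of 1 number came from the same mouse. Among heterozygous libraries the highest was number 2 in 26 sets, number 1 in 15 and number 3 in 9. Over all genes number 2 was highest in 25.4% to 44%, number 1 in 22.7% to 36.8% and number 3 in 28.6% to 39.7%. Kidney gave 7 of the 9 sets of number 3, which was highest there in 39.7% of all genes. Of the 26 sets of number 2, 9 came from spleen, where that library was highest in 41.8% of all genes. Spleen heterozygous 2 held 1142 CPM of 5 exocrine pancreas markers. The other heterozygous spleens held 8.91 and 11.5 CPM, and WT 137, 78.9 and 6.22. Without spleen heterozygous 2, 0 members were called in spleen, as with it, and its part in that order was not tested.

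Liver had the widest spread. The median over members of the highest to the lowest WT library was 2.64 in liver and 1.34 to 1.59 elsewhere. Liver WT 2 lay above its group mean for 10 of 10 members, by a median of 0.61 log2, and liver WT 3 below it for 10 of 10, by 0.63. Over all genes tested in liver, WT 2 was the highest WT library in 38.3% and WT 3 the lowest in 49.6%. The members vary together, so they are not 10 separate observations. In heterozygous liver, number 3 was the lowest for every member except Cryab, which was highest there. Among them were Hspa1b (14.8, 15.2 and 4.05 CPM), Hsph1 (109, 108 and 34.3) and Dnajb1 (63.1, 62.0 and 28.6). Heterozygous 3 was the lowest in 44.8% of all genes tested in liver. Immediate early genes summed to 249, 456 and 454 CPM in WT liver and 438, 442 and 213 in heterozygous liver, so WT 2 and WT 3, at opposite ends for the chaperones, were level on them. Liver WT 3 also held 59.1 CPM of neuron markers against 19.4 to 27.0 in the other 5 liver libraries. The part of either marker set in the liver spread was not tested.

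**Figure D5:**
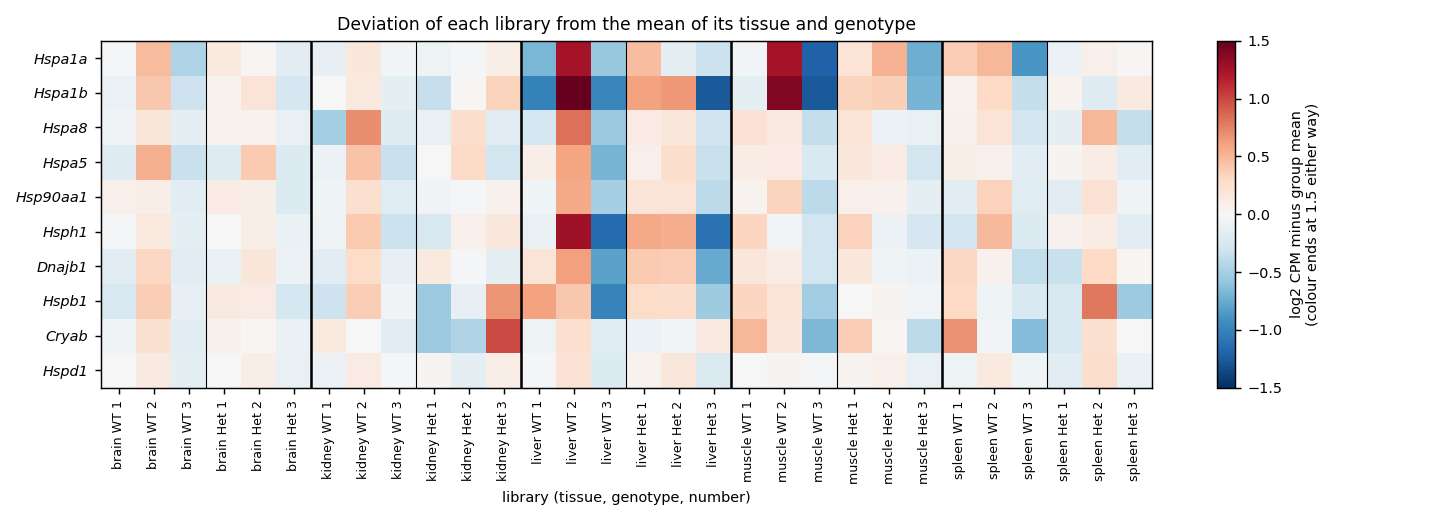
Log2 CPM of each member minus the mean of its tissue and genotype group, as colour (red above, blue below) in the 30 libraries. Liver WT 2 is above its group for 10 of 10 members and liver WT 3 below for 10 of 10, and WT 3 is highest in 0 of the 50 member and tissue sets. Over all genes, liver WT 2 was highest in 38.3% and liver WT 3 lowest in 49.6%. WT 3 was highest in 29.8% to 39.8% of all genes, depending on the tissue.

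After subtracting group means, the members' 45 pairwise correlations over 30 libraries ran from 0.21 (Hspa5 and Cryab) to 0.88 (Hspa1a and Hspa1b). Hsph1 and Hsp90aa1 followed at 0.86, and Hspa1b and Hsp90aa1 at 0.85. The points share libraries and depth, and the first pair also shares sequence. In kidney Hspa1a and Hspa1b had r = 0.71 and in muscle 0.99, each over 6 libraries.

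Genes with at least 5 CPM in every tissue were ranked by the same measure against each member, over about 7031 genes. Hspa8 was most like Stip1 (0.93), Ahsa1 (0.87) and Hsp90ab1 (0.86), and Hspa5 most like Creld2 (0.89), Ptpn1 (0.88) and Manf (0.86). Hsph1 was most like Nfe2l1 (0.92), Twnk (0.90) and Chordc1 (0.88), Hsp90aa1 like Twnk (0.88), Canx (0.87) and Rcc2 (0.86), and Dnajb1 like Mis12, Ncbp1 and Ddx27 (each 0.92). Hspa1a was most like Slc20a1 (0.88), Tnks1bp1 (0.83) and Noct (0.81), and Hspa1b like Csad (0.86), Hsp90aa1 (0.85) and Slc20a1 (0.84). Hspb1 had Phc2 (0.91), Ociad1 (0.91) and Eif4a3 (0.91), Hspd1 had Mfn1 (0.88), Ddx27 (0.87) and Lonp1 (0.87), and Cryab had Twf2, Psmd8 and Cox6a1 (each 0.74). Cryab thus had the lowest best match of the 10. Of neighbours on the chromosome other than Hspa1a and Hspa1b, Cryab and Hspb2 had r = 0.34, Hspa1a and Hspa1l 0.34, and Hspd1 and Hspe1 0.67.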

How the data were processed

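The authors deposited 1 table of raw counts per tissue, made per the file headers with featureCounts 1.5.0-p3 on paired-end alignments to GRCm38 with Ensembl release 86, by exon, without strand and without fragments that map to several places or genes. STAR, FastQC and DESeq2 are named, without a role, in the submitters' processing notes. Gene symbols came from the reference annotation. Counts were tested with edgeR 4.0.16 (filterByExpr, TMM, quasi-likelihood test, Benjamini-Hochberg adjustment over all genes tested), within each tissue for genotype and over the 15 WT libraries for tissue; SE is the log2 difference divided by the root of F. DESeq2 1.42.0, limma-voom 3.58.1, other scalings and filters, a replicate block and leaving out each library were alternatives. All 10 members were described; of 78 other chaperone genes in 10 lists, the 2 smallest p-values per tissue and the 3 highest in a tissue were named, and further names were added after values were seen. Members and lists were chosen with earlier results of these data known. Same-numbered WT and heterozygous libraries deviated together in brain (r 0.21 to 0.54) and kidney (0.19 to 0.21) in all 3 pairs. In liver, muscle and spleen at least 1 pair had r under 0.1. The main fit took numbers as pairs in no tissue, brain and kidney included, and the replicate block was an alternative. No replicates agreed within counting noise. Scripts were tested on simulated data.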

Additional observations from a re-analysis of the deposited data

How the results depend on the processing

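Of 305 counts of calls under other settings, 298 stayed within 1.5 times the value reported. In kidney 0 members were called by edgeR's test, but 2 by DESeq2 (Hspa1a and Hspa1b), 1 with no filter beyond 1 count (Hspa1b), 0 to 2 when a library was left out, and 1 (Cryab) without both libraries of number 3, a setting added after seeing the data. The count of 2 came without heterozygous 3. Other chaperone genes called by genotype went from 0 to 1 in muscle with the replicate block (Hspb7) and from 0 to 1 in spleen in the fit of all 30 libraries (Hspb8). Between WT kidney and WT muscle 8 members were called with total counts, against 5. The replicate block changed no genotype call of a member in any tissue, and of 100 member contrasts between tissues 98 kept their side of the threshold under it and 2 gained a call. Leaving out a WT library moved the members called between tissues within 6 to 7 for brain and kidney, 7 to 8 for brain and liver, 5 to 6 for brain and muscle, 5 to 6 for brain and spleen, 3 to 4 for kidney and liver, 5 to 6 for kidney and muscle, 5 to 6 for kidney and spleen, 6 to 8 for liver and muscle and 5 to 6 for liver and spleen, and left 9 for muscle and spleen. Of 710 genotype values of members, 704 kept their side of the threshold, and 68 that were not called changed sign. Depth limits the spleen values of Cryab, Hspb1 and Hspa1a, which rest on few counts.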
